A study of Mus musculus with 4 samples.

Results

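The transcripts of the enzymes of glycolysis and of the citric acid cycle were followed in whole left hippocampi of wild-type mice, with 1 Affymetrix expression array per sample. The genes were taken from a list of 33 enzymes, and every probe set that the array's probe table assigns to exactly 1 of these symbols was used. This gave 79 of 45101 probe sets, for 31 of 18194 genes. Gpi1 and Eno1 had no probe set of their own in the table and were not analysed here. The 4 samples, numbered 11, 13, 15 and 17, are described as biological replicates. All are wild type and form 1 group, so there is no treated or mutant group to compare. The labels used here name no strain, sex or age. The tissue was taken whole, so fewer cells of a type and less RNA per cell cannot be told apart in any value below.

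Glycolysis splits glucose into pyruvate in the cytosol. The pyruvate dehydrogenase complex of mitochondria turns pyruvate into acetyl groups, which the citric acid cycle oxidises to feed the respiratory chain. Brain tissue depends heavily on glucose, and many steps have isoforms named after the tissue in which they prevail, such as the muscle, liver and platelet forms of phosphofructokinase. Lactate dehydrogenase joins pyruvate and lactate, and transaminases and malate dehydrogenases carry reducing equivalents between cytosol and mitochondria and link the cycle to glutamate.

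The deposited values are log2 intensities, in which a difference of 1 is a doubling. The array medians lay between 4.67 and 4.71. Precision is limited by the number of arrays. Equal values in at least 2 samples occurred in 35 of the 79 enzyme probe sets, or 44.3%, against 53.2% of all probe sets, and such ties lower an SD. The background limit was 7.06, the 95th percentile of 42 measured genes that belong to tissues such as testis, skin and liver, whose median was 3.69. Markers of the tissue were checked first: 9 of 9 neuronal, 9 of 10 pyramidal and granule cell and 8 of 8 astrocyte markers lay above the limit, and 0 of 10 muscle and 0 of 4 blood markers did. The neuronal list includes the enzyme Eno2, the astrocyte list Aldoc and the muscle list the isoforms Pgam2 and Eno3. Acta1, Ckm and Myh4 of the muscle list are also among the 42 genes that set the limit. Of other markers, 5 of 7 for myelin, 4 of 6 for microglia and 2 of 5 for endothelium lay above it. Of the choroid plexus markers, 5 of 6 were under the limit. Ttr stood at 7.36, 9.84, 6.86 and 6.54 in samples 11, 13, 15 and 17. The 3′ minus 5′ difference of the Gapdh control probe sets, a measure of how much of the transcript's start is still read, was 0.62 in both of samples 11 and 13, but 2.64 in 15 and 3.79 in 17.

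Nearly the whole pathway was detected. Of the 31 measured enzyme genes, 30 had a highest probe set above the limit, beside 36.1% of all genes, and of the 79 probe sets 56 did, beside 22.2% of all probe sets. The exception was the hexokinase gene Hk2. By role, the counts were 12 of 13 for glycolysis, 4 of 4 for the pyruvate dehydrogenase complex, 10 of 10 for the citric acid cycle and 4 of 4 for the shuttle and replenishing enzymes. Only 2 genes, Hk2 and Dld, lay within 1 log2 unit of the limit. With the median of a gene's probe sets in place of the highest, 24 of 31 genes passed, and Pfkp, Pcx, Got2, Dld, Dlst and Sucla2 joined Hk2 below. Each of these 6 has at least 1 probe set under the limit beside its bright one.

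**Figure D1:**
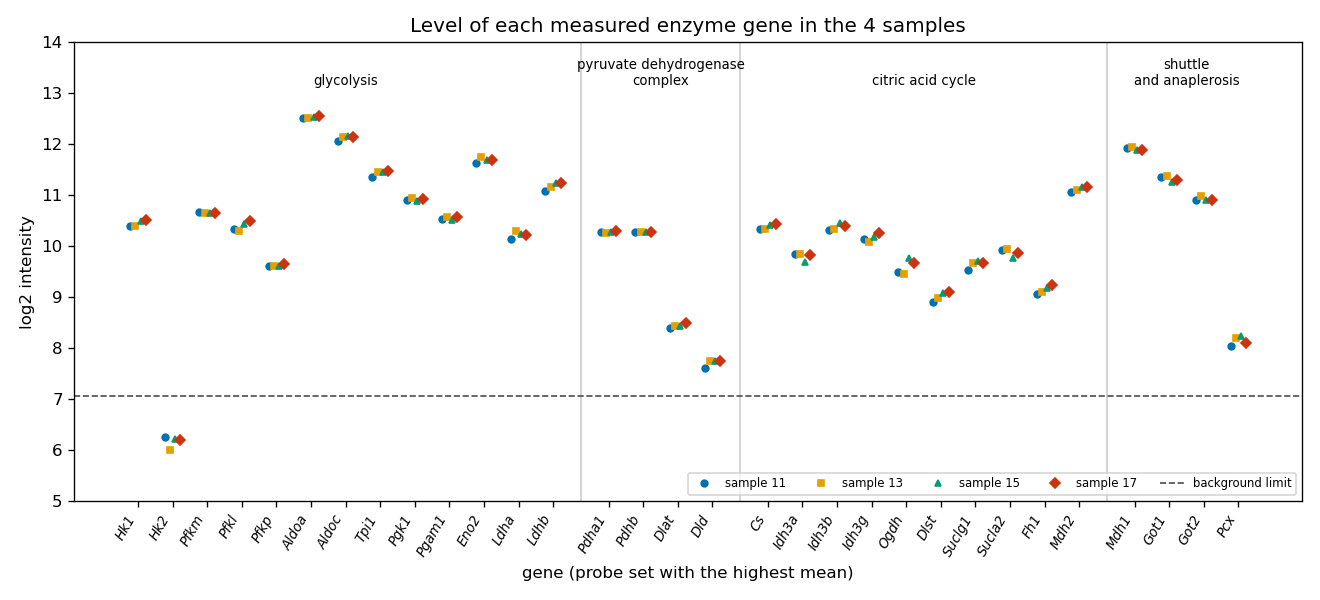
Log2 intensity (vertical axis) of the highest probe set of each of the 31 measured enzyme genes (horizontal axis, by role), with 1 point per sample and the background limit of 7.06 as a dashed line. Hk2 is the gene whose 4 points lie under the line; the heights of different genes are not comparable, because probe sets differ in affinity.

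Hexokinase, which traps glucose in the cell by phosphorylation, was present in its brain form. Hk1 stood at 10.40, 10.39, 10.50 and 10.52 in samples 11, 13, 15 and 17 (10.45 ± 0.0659, mean ± SD, n = 4, as for all levels here). Hk2, the form of muscle and fat, stood at 6.26, 6.0, 6.21 and 6.19 in the same order (6.16 ± 0.112), under the limit in every sample. A level under the limit does not show that the gene was absent. With the limit set at the 90th percentile of the same genes, 6.24, the mean of Hk2 was still under it, but sample 11 was not.

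All 3 phosphofructokinase forms, which catalyse the committed step of glycolysis, were detected. The muscle form Pfkm stood at 10.67 in sample 11 and at 10.65 in each of samples 13, 15 and 17 (10.66 ± 0.00974). The liver form Pfkl was more variable, at 10.34, 10.30, 10.44 and 10.49 in samples 11, 13, 15 and 17 (10.39 ± 0.0871), and was highest in sample 17. A second Pfkl probe set, at 9.99, 9.99, 10.02 and 10.01, spanned 1.03-fold from lowest to highest sample, against 1.14-fold for the first. The platelet form Pfkp stood at 9.61 in samples 11, 13 and 15 and at 9.66 in sample 17 (9.62 ± 0.0239). The difference Pfkm minus Pfkl, which cancels what is common to an array, was 0.33, 0.35, 0.21 and 0.16 in samples 11, 13, 15 and 17. Within one array such a difference shows unequal change between samples, not which form is more abundant.

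Aldolase splits the sugar bisphosphate into triose phosphates. The muscle-type gene Aldoa, also the general form, stood at 12.52, 12.52, 12.54 and 12.55 in samples 11, 13, 15 and 17 (12.53 ± 0.0147). Its other 4 probe sets above the limit had SDs from 0.0250 to 0.0720 and ranges from 0.0545 to 0.172. All 5 carry the suffix x, which the maker gives to sets whose probes may also bind other transcripts. Aldoc, the brain form that marks astrocytes in the forebrain, stood at 12.07, 12.15, 12.17 and 12.14 in samples 11, 13, 15 and 17 (12.13 ± 0.0433). A second Aldoc probe set stood at 7.92, 8.19, 8.16 and 8.09 (8.09 ± 0.123). Both were lowest in sample 11, as were 4 of the 8 astrocyte markers, a list that includes Aldoc itself, beside 45.1% of all probe sets above the limit.

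The neuronal enolase Eno2, which is a marker of neurons, stood at 11.64, 11.75, 11.70 and 11.70 in samples 11, 13, 15 and 17 (11.70 ± 0.0445). Its general counterpart Eno1 was not analysed here, so no contrast of neuronal with glial enolase could be made. Lactate dehydrogenase was detected in both forms. Ldha, the muscle subunit that favours lactate formation, stood at 10.15, 10.30, 10.23 and 10.22 in samples 11, 13, 15 and 17 (10.22 ± 0.0628). Ldhb, the heart subunit, stood at 11.09, 11.16, 11.24 and 11.24 (11.18 ± 0.0728), and was lower in samples 11 and 13. Its other sets stood at 10.80, 10.86, 11.00 and 10.94, at 10.61, 10.61, 10.66 and 10.62, and at 10.15, 10.24, 10.26 and 10.24. All 4 had sample 15 highest, in the first set level with sample 17 at the decimals shown. Ldha was highest in sample 13, and the difference Ldha minus Ldhb was -0.94, -0.87, -1.01 and -1.03 in samples 11, 13, 15 and 17, a 1.12-fold span.

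**Figure D2:**
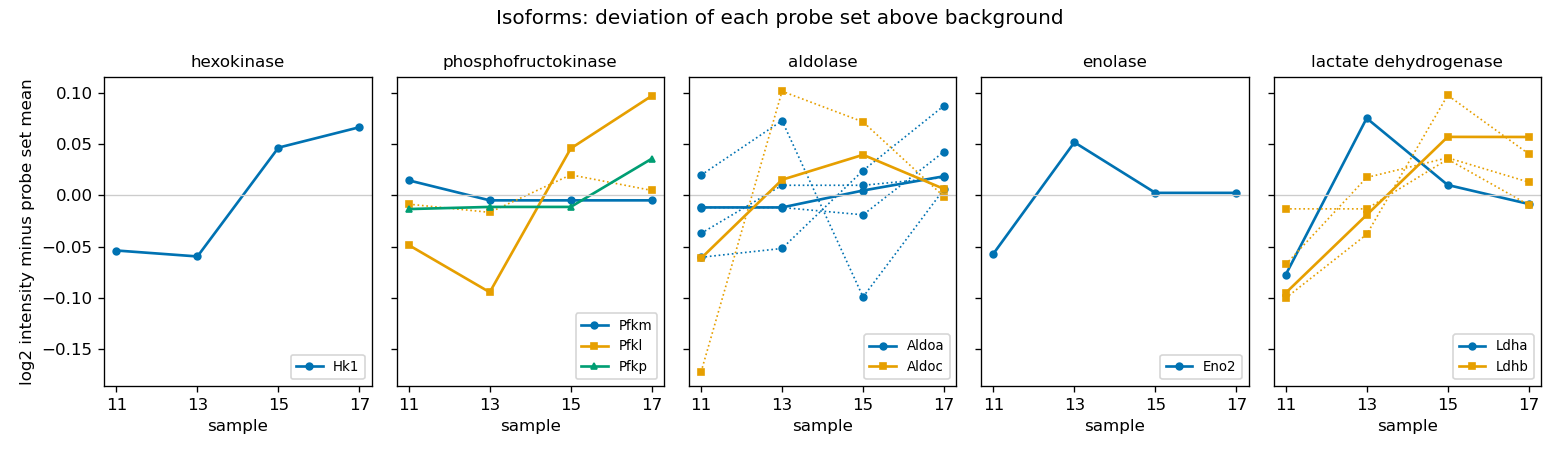
Deviation of log2 intensity from the probe set's own mean (vertical axis) in samples 11, 13, 15 and 17 (horizontal axis) for the isoforms of 5 glycolytic steps, with the highest probe set as a solid line and the gene's other probe sets above the limit as dotted lines. The lines only join points of one probe set, since the samples have no order; the 4 Ldhb probe sets share a high sample 15, though the highest set is at 11.24 in both samples 15 and 17.

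The promoters of the aldolase and lactate dehydrogenase pairs are shown because they differ in a motif at the starts used. They were chosen after the matches were seen. ACGTG and GCGTG are the core letters that hypoxia-inducible factor can bind, and Ldha and Aldoa are textbook targets of that factor. The sequences are the 250 bases before the RefSeq start in GRCm38.p6, taken at the start with the most CG pairs, 5′ to 3′ on the gene's strand, with every ACGTG or GCGTG on either strand in capitals:
Ldha, chr7:46845554-46845803, plus strand: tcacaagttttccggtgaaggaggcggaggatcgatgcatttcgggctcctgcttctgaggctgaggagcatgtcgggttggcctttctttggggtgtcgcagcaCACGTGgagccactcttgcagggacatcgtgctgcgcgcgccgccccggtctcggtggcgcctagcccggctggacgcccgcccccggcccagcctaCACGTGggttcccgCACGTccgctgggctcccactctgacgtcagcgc
Ldhb, chr6:142507958-142508207, minus strand: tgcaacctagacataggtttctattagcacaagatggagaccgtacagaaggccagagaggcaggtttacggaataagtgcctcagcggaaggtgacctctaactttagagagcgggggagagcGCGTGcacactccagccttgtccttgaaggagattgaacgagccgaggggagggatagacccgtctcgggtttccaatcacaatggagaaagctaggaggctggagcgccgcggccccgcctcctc
Aldoa, chr7:126799255-126799504, minus strand: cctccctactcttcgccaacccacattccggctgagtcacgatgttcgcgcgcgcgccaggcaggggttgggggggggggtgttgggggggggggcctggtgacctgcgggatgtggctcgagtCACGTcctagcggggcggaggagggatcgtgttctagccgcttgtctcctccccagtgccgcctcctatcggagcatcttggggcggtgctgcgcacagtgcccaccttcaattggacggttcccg
Aldoc, chr11:78322823-78323072, plus strand: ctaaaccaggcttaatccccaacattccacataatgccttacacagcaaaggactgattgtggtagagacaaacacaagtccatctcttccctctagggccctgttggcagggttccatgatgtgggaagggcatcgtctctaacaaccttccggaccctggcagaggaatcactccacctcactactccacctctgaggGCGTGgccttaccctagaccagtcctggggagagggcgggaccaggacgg

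Counting both strands, the Ldha window held 5 ACGTG matches, and a CACGTG gives 1 on each strand. The Aldoa window held 1, and the Ldhb and Aldoc windows held no ACGTG and 1 GCGTG each. This contrast depends on the start chosen. Another listed Ldha start had no ACGTG and 1 GCGTG, as in the Ldhb window. An Aldoa start with 0 CG pairs had neither motif. Of the 30 enzyme genes with a promoter in the table, 11, or 36.7%, had ACGTG before at least 1 start, against 18.5% of all genes and 26.7% of genes above the background limit. For GCGTG the shares were 56.7%, 30.9% and 53.8%. CG pairs were counted at the start of each gene that had the most of them. Their median in the window was 15.5 for enzyme genes, 6 for all genes and 19 for genes above the limit. Both the shares and these medians favour genes with more listed starts. The 30 enzyme genes had 44 starts, and all 27025 genes had 32851. These matches are a description of the letters, and no factor binding was measured here.

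The remaining glycolytic genes had SDs under 0.05 by their highest probe set. Triose phosphate isomerase, Tpi1, stood at 11.37, 11.46, 11.46 and 11.47 in samples 11, 13, 15 and 17 (11.44 ± 0.0495), phosphoglycerate kinase, Pgk1, at 10.91 ± 0.0334, and phosphoglycerate mutase, Pgam1, at 10.54 ± 0.0213. Another Tpi1 probe set was lower in sample 11, at 9.75, than in samples 13, 15 and 17, at 9.94, 10.01 and 9.97, and all 3 Tpi1 sets were lowest in sample 11.

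In the pyruvate dehydrogenase complex, the E1 subunits stood at 10.28 ± 0.0180 for Pdha1 and at 10.27 for Pdhb, whose value was equal in all 4 samples, so that its SD of 0 is no measure of biological spread. The acetyltransferase Dlat stood at 8.44 ± 0.0442 and the shared dehydrogenase Dld at 7.71 ± 0.0617. Dld was 7.61 in sample 11 and 7.74 in each of the others.

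The cycle enzymes were detected throughout. Citrate synthase, Cs, which starts the cycle, stood at 10.33, 10.33, 10.42 and 10.44 in samples 11, 13, 15 and 17 by its highest probe set (10.38 ± 0.0594). The subunits of the NAD-linked isocitrate dehydrogenase stood at 9.80 ± 0.0772 for Idh3a, 10.38 ± 0.0661 for Idh3b and 10.16 ± 0.0715 for Idh3g. A second Idh3g probe set stood at 9.73, 9.77, 9.91 and 9.91 in samples 11, 13, 15 and 17 (9.83 ± 0.0936), higher in the latter pair. Ogdh, the first subunit of the oxoglutarate dehydrogenase complex, had the largest SD among the highest probe sets of the 30 detected genes, at 9.49, 9.45, 9.77 and 9.66 in samples 11, 13, 15 and 17 (9.59 ± 0.146). The values of samples 15 and 17 were above those of samples 11 and 13, a 1.24-fold span. Its partner Dlst had the levels 8.90, 8.99, 9.08 and 9.11 (9.02 ± 0.0935), with the same samples high. The succinate-CoA ligase subunits stood at 9.64 ± 0.0817 for Suclg1 and 9.87 ± 0.0803 for Sucla2, fumarase, Fh1, at 9.14 ± 0.0762, and the mitochondrial malate dehydrogenase, Mdh2, at 11.12 ± 0.0485. Mdh2 was 11.05, 11.10, 11.15 and 11.16 in samples 11, 13, 15 and 17.

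Of the shuttle enzymes, the cytosolic Mdh1 and Got1 were at 11.91 ± 0.0347 and 11.32 ± 0.0530, and the mitochondrial transaminase Got2 at 10.92 ± 0.0398. Mdh1 was 11.93, 11.95, 11.88 and 11.88 in samples 11, 13, 15 and 17. The further Mdh1 sets above the limit did not share this course. A second Mdh1 set was 10.36, 10.30, 10.33 and 10.29, and another was 10.31 in sample 11 and 10.29 in the rest. A second Mdh2 set was 10.92, 10.95, 10.94 and 10.95. It was lowest in sample 11, as was the first Mdh2 set, but spanned 1.02-fold against 1.07-fold. The difference Mdh1 minus Mdh2 was 0.87, 0.85, 0.73 and 0.73 in samples 11, 13, 15 and 17, a 1.11-fold span. Pyruvate carboxylase, Pcx, which refills the cycle and in brain is an enzyme of astrocytes, stood at 8.04, 8.20, 8.24 and 8.10 by its control probe set near the 3′ end (8.14 ± 0.0924). Its ordinary probe set stood at 7.63, 7.86, 7.98 and 7.84 (7.83 ± 0.143). Both were lowest in sample 11 and highest in sample 15. The control probe sets of Pcx further from the 3′ end were under the limit in every sample, with means of 5.28 and 4.05 for those in the middle and 4.48 at the 5′ end.

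The differences between samples were small. The median SD of the 56 enzyme probe sets above the limit was 0.0509, against 0.0846 for all 10017 probe sets above it, a ratio of 0.602, and 43 of the 56, or 76.8%, had an SD under the median of all. Levels differ too: 37.5% of the enzyme sets but 8.66% of all sets lay between 10 and 11, and 21.4% against 4.18% above 11. Within bands of level chosen after the values were seen, the enzymes' median SD was lower than that of all sets from the limit to 9 (0.0720 against 0.0944) and from 10 to 11 (0.0398 against 0.0584). It was higher from 9 to 10 (0.0854 against 0.0748) and above 11 (0.0439 against 0.0403). The highest probe sets of the 31 genes spanned a median of 1.08-fold between samples. Spread was tested across all probe sets above the limit, as a set's variance over the variance that limma's fit gives for its level. In this test 0 enzyme probe sets passed an adjusted p of 0.05, beside 0% of all 10017. The smallest adjusted p was 0.893, and an unadjusted p under 0.05 was found for 2 of the 56 enzyme sets and 317 of all sets. With 3 and 2.30 degrees of freedom the test made no call even for the Got2 set that spanned 5.67-fold, so the absence of calls is no measure of stability.

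**Figure D3:**
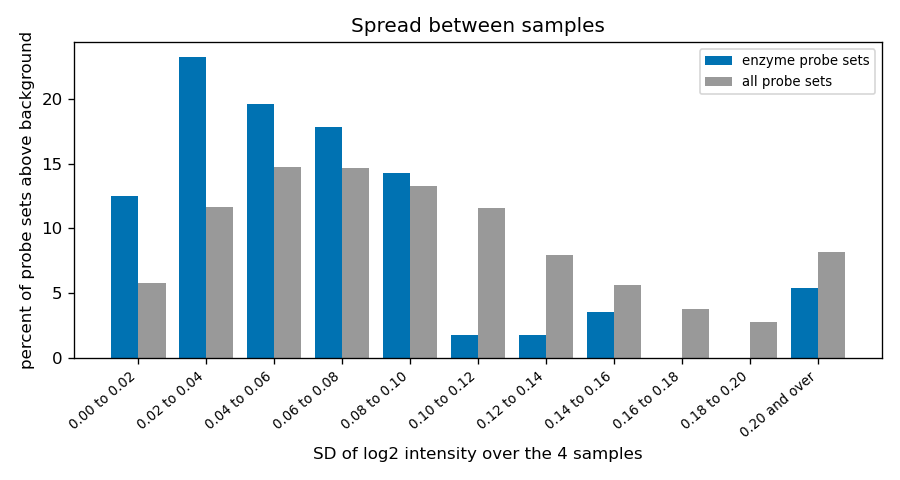
Percent of probe sets above the background limit (vertical axis, from 0) by SD of log2 intensity over the 4 samples (horizontal axis), for the 56 enzyme probe sets and for all 10017. The 2 bars under 0.04 hold 12.5% and 23.2% of the enzyme sets against 5.79% and 11.7% of all sets, and the class of 0.20 and over holds 3 enzyme sets.

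As a group the enzymes had small mean deviations, close to those of all detected genes. For the 30 detected enzymes these were -0.0417, -0.0013, 0.0144 and 0.0286 in samples 11, 13, 15 and 17. For all detected genes they were -0.0505, -0.00073, 0.0194 and 0.0318. Sample 11 was the lowest for 29 of 56 enzyme probe sets, or 51.8%, and for 45.1% of all sets above the limit. After median centring these shares were 67.9% and 56.6%, and after a second quantile normalization 42.9% and 33.9%. The cycle enzymes had means of -0.0531 in sample 11 and 0.0530 in sample 17, while the shuttle enzymes had their highest mean, 0.0518, in sample 13. The 5 myelin markers above the limit, of 7 measured, were also high there, with mean deviations of -0.199, 0.356, -0.0472 and -0.110 in samples 11, 13, 15 and 17. Their part in the shuttle enzymes' values was not tested.

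In a few genes 1 probe set was clearly lower in samples 15 and 17 than in 11 and 13, while the highest set varied little.  The mitochondrial transaminase Got2 had the largest range among enzyme sets above the limit. Its set 1417716_at stood at 8.68, 8.68, 6.72 and 6.17 in samples 11, 13, 15 and 17 (7.56 ± 1.31), a 5.67-fold span. The set 1417715_a_at, which the table derives from the same sequence record, stood at 10.91, 10.98, 10.90 and 10.90. It was also lowest in samples 15 and 17, but with a 1.06-fold span. The difference between these 2 sets was 2.23, 2.30, 4.17 and 4.72. For Cs, the set 1422577_at stood at 7.38, 7.56, 7.03 and 6.77 (7.18 ± 0.354), while both other sets from that record were higher in samples 15 and 17 than in 11 and 13.

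The same samples were low in some of the sets whose mean was under the limit. The Hk1 set 1420901_a_at stood at 7.95, 7.83, 5.99 and 5.49 in samples 11, 13, 15 and 17 (6.82 ± 1.26), a 5.51-fold span, so it was above the limit in samples 11 and 13 and under it in the others. The Pdha1 set 1449137_at stood at 6.42, 6.04, 5.63 and 5.59 (5.92 ± 0.393). Both were chosen after their values were seen. Their genes' highest sets, given above, had 1.09-fold and 1.03-fold spans. Other sets under the limit did not share this course, such as the Mdh1 set 1438338_at, at 5.31, 5.63, 5.63 and 5.75. The Idh3a set 1422500_at ran the other way, at 7.58, 7.72, 7.82 and 8.07 (7.80 ± 0.205), and was highest in sample 17, while the highest Idh3a set stood at 9.85, 9.85, 9.69 and 9.83 and was lowest in sample 15.

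Gapdh, the glycolytic dehydrogenase that the array reads at 3 positions, moved with these sets. Its 3′ set stood at 12.31, 12.32, 12.31 and 12.31 in samples 11, 13, 15 and 17, the middle set at 12.43, 12.46, 12.05 and 11.60, and the 5′ set at 11.69, 11.71, 9.67 and 8.52. The span was largest at the 5′ end, while the 3′ set had an SD of 0.00609. Actb, another such control, was lower in samples 15 and 17 at its 3′ end too, at 11.48, 11.17, 10.99 and 10.73, and its 3′ minus 5′ difference was 1.10, 1.25, 1.93 and 2.33. The positions of the ordinary probe sets on their transcripts are not given in the tables used here, and the part of RNA quality in these values was not tested.

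**Figure D4:**
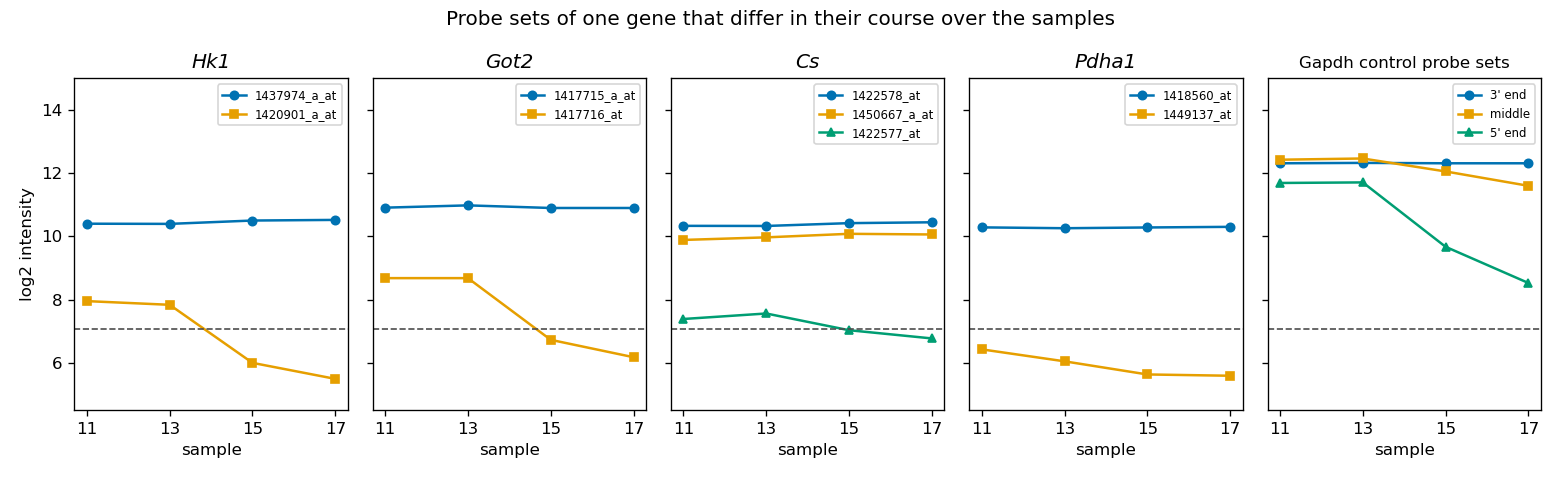
Log2 intensity (vertical axis) in samples 11, 13, 15 and 17 (horizontal axis) of the probe sets of Hk1, Got2, Cs and Pdha1 with a mean above 5, and of the Gapdh control probe sets at the 3′ end, middle and 5′ end, with the background limit as a dashed line. In each of the 4 genes 1 set is lower in samples 15 and 17 than in samples 11 and 13 while the highest set spans at most 1.09-fold, and the Gapdh 5′ set goes from 11.69 to 8.52; lines join points of one probe set and imply no order of samples.

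Ranges of this size were counted over the array. A range over 0.5 was found in 2 of 56 enzyme probe sets above the limit, or 3.57%, beside 6.16% of all. Both, those of Got2 and Cs, were lowest in sample 17, as were 314 of the 617 such sets of any gene. Their means passed the limit through samples 11 and 13, and samples 15 and 17 were under it. The Hk1 and Pdha1 sets with a similar course had ranges of 2.46 and 0.84. They are not in this count, because their means were under the limit. Of the 15 enzyme genes with at least 2 probe sets above the limit, 9 had a set whose range was over 3 times that of another, or 60%, beside 35.8% of all such genes. These were Pfkl, Aldoa, Tpi1, Ldhb, Cs, Idh3a, Mdh1, Mdh2 and Got2. Apart from Got2, Cs and Idh3a, the largest range among these was 0.268, in Tpi1. The 3 Mdh1 sets had ranges of 0.0705, 0.0698 and 0.0192, and the 2 Mdh2 sets of 0.102 and 0.0289.

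Whether the probe sets of a gene shared differences between samples was tested across the 1828 genes with at least 2 sets above the limit. Variances were squeezed by limma. A gene passes only if its sets show a common difference that is large beside their disagreement. A gene whose sets all vary little does not pass, so a failure does not mean that its sets disagree. Of the 15 enzyme genes 0 passed an adjusted p of 0.05, beside 2.13% of all genes, and 2 of the 15 and 403 of all genes had an unadjusted p under 0.05. Nearest were Ldhb, with an adjusted p of 0.102 and mean deviations over its 4 sets of -0.0689, -0.0131, 0.0567 and 0.0254 in samples 11, 13, 15 and 17, and Pcx, with an adjusted p of 0.14 and -0.151, 0.0437, 0.123 and -0.0161. With the Gapdh difference as a covariate Pcx passed, with an adjusted p of 0.0412, and Ldhb did not, at 0.162, where 10.4% of all genes passed. With each array centred on its median, Ldhb was the 1 enzyme gene that passed. The count over all genes was 39, and it was 3 without sample 11, 8 without sample 13, 6 without sample 15 and 8 without sample 17, and no enzyme gene passed in any of these.

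Genes around the pathway were taken from 4 lists. Of 12 measured further genes listed under the same pathway 10 were above the limit, of 13 regulators 9, of 10 carriers 7 and of 12 genes of branching pathways 10. Largest in SD among those were Slc16a1, Tigar, Slc2a1 and Taldo1. The monocarboxylate carrier Slc16a1 stood at 7.97, 8.16, 7.97 and 8.50 in samples 11, 13, 15 and 17. In the same order the regulator Tigar stood at 7.42, 7.55, 7.55 and 7.80. The glucose carrier Slc2a1 of vessels and glia stood at 8.67, 8.68, 8.82 and 8.98, and Taldo1 of the pentose phosphate pathway at 8.73, 9.01, 9.0 and 8.94. The first 3 were highest in sample 17, and Taldo1 was lowest in sample 11. None of the 11 measured isoforms of other tissues was above the limit. Among these the muscle forms Pgam2 and Eno3 stood at 6.51 ± 0.0815 and 5.31 ± 0.168, the testis form Ldhc at 4.02 ± 0.0568 and the leukocyte hexokinase Hk3 at 6.33 ± 0.0998.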

How the data were processed

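RNA of 4 samples was isolated by a lipid-tissue kit, DNase-treated, amplified and biotin-labelled, per the labels' protocols. What the authors deposited are log2 intensities from RMA, a method that corrects background, equalises the arrays and summarises a set's probes, as named in the submitters' processing notes. Version and settings: not given in the sources used. Of 45101 probe sets, 34958 have 1 symbol, 932 several and 9211 none, and 34754 of the first kind were found in the RefSeq table of GRCm38.p6, which renamed no listed enzyme. Probe sets with several symbols, 1 of which includes a listed enzyme, were left out. Members and lists were chosen with earlier results of these data known.

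A gene's level is that of its highest probe set. Background is the 95th percentile of 42 measured genes of a list of 48. Spread was tested with limma (intercept, eBayes with trend and robust fit; residual over prior variance as F with 3 and 2.30 degrees of freedom), and agreement of probe sets with the mean square between samples over the squeezed mean square of probe set by sample, both with Benjamini-Hochberg adjustment at 0.05 over the whole array. Both were tested on simulated data in which all probe sets had the same SD, so that check does not show what the test of spread can detect at the real, unequal spread. Nothing in the labels says how the samples were kept apart beyond being biological replicates. The spread p-value compares a probe set's variance over these samples with that usual at its level. The agreement p-value compares differences between the samples with the disagreement of a gene's probe sets on the same arrays. Neither extends beyond these samples. Named are all members. Values per sample are given for the highest set of the isoform families and of genes whose sets above the limit differ over 3-fold in range. Only some of the further sets of these genes have such values. They are also given for the 10 probe sets above the limit with the largest SD, for Gapdh and for the 4 most variable other pathway genes. Alternatives covered the limit, scaling, prior, filter, probe set types, threshold, covariate and each sample left out; leaving out both of samples 15 and 17 was added after the values were seen. Software was matplotlib 3.10.9, Python 3.11.15, limma 3.58.1 and R 4.3.3.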

Additional observations from a re-analysis of the deposited data

Results flagged for a closer look

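In 13 of the 56 enzyme probe sets above the limit, 1 sample lay farther from the nearest other sample than Dixon's 95% value allows for 4 values. This is 23.2% of them, against 14.9% of all 10017 sets above the limit; the difference was not tested. Chance flags about 1 in 20 groups. Equal values occurred in 37.5% of these enzyme sets and 27.9% of all, and in 12 of the 13 sets at least 2 of the other values were equal, which shortens the range of the rest. The gaps were 0.141 at most. Sample 11 was low for 2 Tpi1 sets, at 11.37 against 11.46 and at 11.25 against 11.29, for Dld at 7.61 against 7.74 and for an Aldoa set at 11.69 against 11.74. It was high for Pfkm at 10.67 and an Mdh1 set at 10.31, both by under 0.02. Sample 13 was low for an Idh3a set at 8.45 and high for the highest Got2 set at 10.98. Sample 15 was low for the highest Idh3a set at 9.69 and high for an Ldhb set at 10.66. Sample 17 was high for Pfkp at 9.66 and an Aldoa set at 12.18, and low for a Dlat set at 7.86. The Tpi1 set at 11.37 is the one without equal values.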

How the results depend on the processing

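The number of enzyme genes above background was 30 in all alternatives except the median of a gene's probe sets (24) and the omission of sets ending in x or s (29 of 30, since Aldoa then has no set left and Hk2 is again the one under the limit). The test of spread gave 0 calls throughout, which says nothing of stability. The count of genes that passed the agreement test was 39. It was 18 with the 90th percentile as limit, 89 with median centring and 190 with the Gapdh covariate. Without sets ending in x or s it was 2, and at a threshold of 0.10 it was 148. With each sample left out in turn it was 3 to 8, and without both of samples 15 and 17 it was 12. The median SD of the enzyme sets, 0.0509, was 0.0624 after median centring, 0.0617 without sets ending in x or s, 0.0406 to 0.0545 with each sample left out and 0.0327 without both of samples 15 and 17. Its ratio to all probe sets, 0.602, was 0.686 after median centring, 0.713 without sets ending in x or s and 0.604 to 0.705 with each sample left out. The causes of these shifts were not tested. No paired analysis was possible because there is 1 group. Signal over background limits what can be read from sets near the limit, such as those of Hk1 and Cs.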

Other observations

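The 3 following genes next to the pathway entered the counts above, but their values were not given there. Their means lay under the background limit. Pdk4, a kinase that switches pyruvate dehydrogenase off, stood at 5.35, 6.40, 6.05 and 6.39 in samples 11, 13, 15 and 17. The related kinases Pdk1, Pdk2 and Pdk3 were above the limit, with means of 7.80, 8.53 and 7.79. Suclg2, the GTP-linked subunit of succinate-CoA ligase, stood at 6.69, 6.70, 7.06 and 7.04 in the same order, and Pdhx, which binds Dld into its complex, at 7.04, 7.08, 6.67 and 6.83. Pdk4, Suclg2 and Pdhx were chosen after their values were seen.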
